A study of Mus musculus with 4 samples.

Results

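The transcription factors Prrx1, Prrx2, Twist1, Twist2, Tead1, Meox1, Meox2, Tcf21, Tbx15 and Osr2, which mark mesenchymal cells, were followed in the stromal cells of mouse lower limb vessels by single-cell RNA-seq. The 10 genes were taken by name from the 30406 genes that all 4 libraries share, and the rule that named them used no threshold on a measured value. They were nonetheless chosen with earlier results of these data known. The study had already reported Prrx1, Twist1, Tead1 and Meox2 from the same data. All mice were of the C57BL/6J strain, and the popliteal lymphatic vessels with the neighbouring saphenous veins of 3 mice were pooled for each library. The tdT1 and tdT2 libraries held tdT+ cells of Cspg4-Cre;tdTomato mice, male and female and over 8 months old, in which Cre driven by Cspg4 leaves a red reporter in cells that express the pericyte and smooth muscle proteoglycan NG2 or descend from cells that did. The WT library held cells of non-transgenic male mice, and the TNF-Tg library those of male mice that carry a human TNF transgene and develop inflammatory-erosive arthritis, both labelled as 9 months old and sorted by light scatter in place of fluorescence. The libraries held 1504 (tdT1), 454 (tdT2), 5488 (WT) and 3391 (TNF-Tg) cells, with median depths of 6393.5, 4932.5, 12660 and 10605 unique molecular identifiers (UMIs, counted transcripts) per cell.

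The Prrx genes encode paired-related homeodomain proteins of limb and craniofacial mesenchyme, and the Twist genes encode basic helix-loop-helix repressors that maintain a mesenchymal, undifferentiated state. Tead1 is the DNA-binding partner of the Hippo pathway co-activators and also binds at muscle genes, Meox1 and Meox2 are mesoderm homeobox genes, and Meox2 is known as a growth-arrest gene of vascular cells. Tcf21 is the bHLH factor of epicardial and coronary adventitial fibroblasts, Tbx15 a T-box factor of limb and skin mesenchyme, and Osr2 an odd-skipped zinc-finger factor of limb joints and tendons.

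From clusters of cells, the study named lymphatic muscle cells (LMCs) and the smooth muscle cells of the vein (VSMCs). Its evidence included Cald1, Tpm1 and Pdgfrb, muscle-related transcription factors (Prrx1, Twist1, Tead1 and Meox2 among them), flow cytometry and reporter mice. It also reported limited Acta2, Myh11 and Tagln, and could not fully exclude myofibroblasts of the surrounding tissue. Here cells were gated instead on lists of markers. Stromal cells had high pan-stromal genes (collagen genes, Dcn, Pdgfra and Serping1) and low leukocyte genes. They were divided by 12 markers of the study's LMC clusters (such as Pi16, Dpp4 and Myoc) against 12 of its VSMC clusters (such as Cxcl14, Gdf10 and Mgp). The study drew these markers from the same libraries, so the gate only repeats that distinction, and none of the 10 transcription factors is among the markers. It took in 4487 of the 10837 cells (41.4%), of which 2675 were LMC-type, 1309 VSMC-type and 503 intermediate, and 479 stromal cells (10.7%) lay within 0.25 score units of a dividing line. The names LMC-type and VSMC-type are those of the gate only, since most defining genes of contractile smooth muscle were at or near 0 in both. Acta2 ran from 0 to 4.49 UMIs per 1000000 UMIs (CPM) over the 8 combinations of library and type, Myh11 from 0 to 2.18 and Tagln from 0 to 1.66, and the 8 contractile and pericyte markers together from 3.60 to 42.03. In LMC-type cells most of that sum was Des, an intermediate filament gene of muscle, which stood at 40.7, 10.0, 37.0 and 29.1 CPM there in tdT1, tdT2, WT and TNF-Tg and at 1.64 to 12.5 CPM in VSMC-type cells. The fibroblast marker Pdgfra stood at 393 to 667 CPM in the same cells, but it is a pan-stromal gene of the gate and so high in part by selection. Of the study's smooth muscle markers, Cald1 stood at 178 to 322 CPM, Tpm1 at 49.5 to 94.1 and Pdgfrb at 41.2 to 156. Cspg4, whose promoter drives the Cre, stood at 0.696 to 6.86.

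The 250 bases before the start of 3 members are shown because these genes separated the types and their windows hold no exon of the same strand (RefSeq, GRCm38.p6, plus strand, 5′ to 3′). The Twist1 window lies at chr12:33957421-33957670, that of Twist2 at chr1:91801211-91801460 and that of Meox2 at chr12:37108290-37108539. Each ends at the base before the annotated start of the gene, and the Twist2 window also lies within an exon of the opposite-strand gene Gm29100. Capitals mark matches to 6 motifs searched on both strands.
Twist1: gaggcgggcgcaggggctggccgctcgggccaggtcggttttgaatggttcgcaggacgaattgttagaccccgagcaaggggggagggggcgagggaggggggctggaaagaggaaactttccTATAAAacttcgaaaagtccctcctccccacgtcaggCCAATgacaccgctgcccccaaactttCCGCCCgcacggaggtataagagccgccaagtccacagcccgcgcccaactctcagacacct
Twist2: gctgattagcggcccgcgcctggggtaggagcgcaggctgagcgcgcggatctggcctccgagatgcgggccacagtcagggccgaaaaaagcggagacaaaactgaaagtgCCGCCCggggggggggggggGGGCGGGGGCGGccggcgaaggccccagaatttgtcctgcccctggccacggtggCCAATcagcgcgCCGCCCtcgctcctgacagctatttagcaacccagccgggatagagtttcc
Meox2: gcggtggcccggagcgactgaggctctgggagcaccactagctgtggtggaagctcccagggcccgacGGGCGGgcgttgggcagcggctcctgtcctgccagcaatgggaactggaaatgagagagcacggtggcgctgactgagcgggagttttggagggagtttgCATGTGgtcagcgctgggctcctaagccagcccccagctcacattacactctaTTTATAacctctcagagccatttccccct

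The motifs were the E-box CANNTG that Twist proteins bind, the homeodomain core TAATTA, the TEAD element GGAATG, the GC box GGGCGG, the TATA box TATAAA and the CCAAT box. The Twist1 window held 1 CCAAT box 89 bases before the start, 1 GC box at 62 bases and 1 TATAAA at 126 bases. The Twist2 window held 4 GC boxes and 1 CCAAT box at 63 bases. That of Meox2 held the only E-box of the 3, CATGTG at 82 bases before the start, besides 1 GC box at 182 bases and 1 TATAAA on the reverse strand at 29 bases. Among all 32851 promoter windows of the same length, 66.2% held an E-box, 32.7% a GC box, 33.8% a CCAAT box and 12.4% a TATAAA, so most of these matches are common ones. The core TAATTA (4.84% of windows) and GGAATG (12.6%) were in none of the 3. The table held windows for 6 of the 10 members.

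The levels of the members were summed over all cells of a type in a library and expressed as CPM (n = 4 libraries). Intervals here and below are 95% exact intervals and cover counting error only.

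Osr2 gave the widest separation between the types. It stood at 192, 148, 93.7 and 57.8 CPM in the LMC-type cells of tdT1, tdT2, WT and TNF-Tg, against 22.9, 22.3, 7.37 and 7.57 CPM in the VSMC-type cells of the same libraries. The lowest LMC-type value lay above the highest VSMC-type value, and the intermediate cells, at 120, 96.5, 40.1 and 15.1 CPM, fell between the other two types within each library. Over the 4 libraries the means were 123 ± 59.0 (SD, n = 4) in LMC-type, 67.9 ± 48.5 in intermediate and 15.0 ± 8.73 CPM in VSMC-type cells, so that neighbouring types overlapped between libraries although they kept their order within each one.

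Meox2 had the opposite pattern. In VSMC-type cells it reached 115, 111, 114 and 91.3 CPM in tdT1, tdT2, WT and TNF-Tg, and in LMC-type cells 22.7, 5.998, 23.1 and 22.5 CPM. The tdT2 value of LMC-type cells rests on 3 UMIs. Intermediate cells had 42.8 ± 15.5 CPM (SD, n = 4), and the ranges of LMC-type and VSMC-type cells did not overlap. Its paralog Meox1, a gene of somites and endothelium, was near the detection limit, with 6 UMIs over all LMC-type and 30 UMIs over all VSMC-type cells, or at most 2.00 and 3.81 CPM in a library.

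The Prrx paralogs differed from one another. Prrx2 measured 11.1, 28.0, 23.9 and 26.3 CPM in LMC-type cells and 59.9, 92.6, 76.2 and 105 CPM in VSMC-type cells, with every VSMC-type value above every LMC-type value. Its intermediate cells, at 88.4 ± 30.4 CPM (SD, n = 4), could not be told from VSMC-type cells at 83.5 ± 19.7 CPM. Prrx1 was found at 498, 538, 438 and 346 CPM in LMC-type and 714, 525, 595 and 408 CPM in VSMC-type cells. The 3 stromal types overlapped for Prrx1, and in tdT2 the VSMC-type value was the lower one.

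The Twist paralogs ran against each other. Twist1 stood at 296, 244, 262 and 209 CPM in the LMC-type cells of tdT1, tdT2, WT and TNF-Tg, and at 205, 142, 160 and 110 CPM in VSMC-type cells. Twist2 was at 38.2, 49.99, 36.3 and 36.3 CPM in LMC-type cells and at 58.3, 85.7, 60.4 and 40.9 CPM in VSMC-type cells. In each library Twist1 was higher and Twist2 lower in the LMC-type cells. Across libraries the Twist1 ranges of the types came as close as 209 and 205 CPM, and the Twist2 ranges overlapped. Intermediate cells had 255 ± 51.4 CPM of Twist1 (SD, n = 4), close to LMC-type cells, and 75.2 ± 23.2 CPM of Twist2. Within each library their Twist2, at 86.1, 101, 66.8 and 47.3 CPM, lay above that of both other types.

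Tead1 was somewhat higher in LMC-type cells, with 67.3, 36.0, 59.7 and 49.1 CPM against 37.0, 29.1, 39.1 and 26.3 CPM in VSMC-type cells. Tbx15 was lower in the LMC-type cells of tdT1 (63.7 against 89.9 CPM), tdT2 (28.0 against 51.4) and WT (49.1 against 61.4), and higher in those of TNF-Tg (47.5 against 35.2). The Tead1 and Tbx15 ranges of the types overlapped across libraries. Tcf21 was not detectable at this depth, with 1 UMI over all LMC-type, 2 over all intermediate and 1 over all VSMC-type cells.

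**Figure D1:**
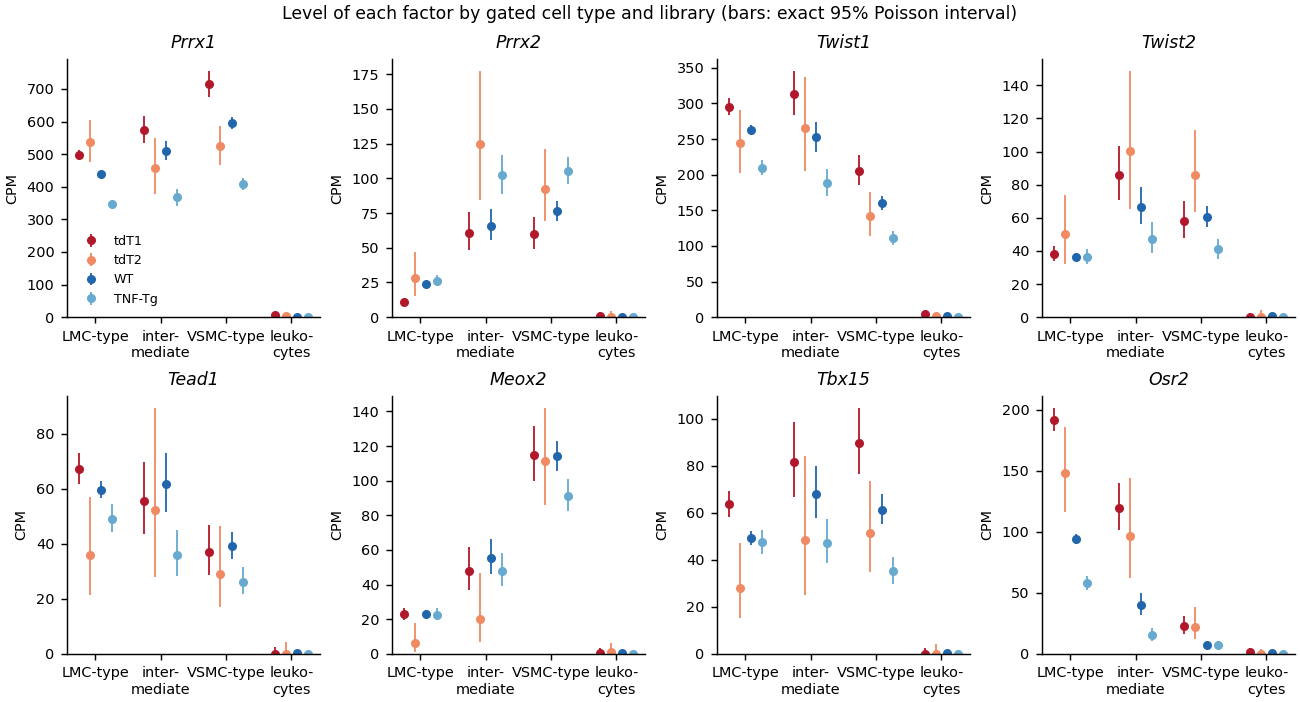
Levels of members in CPM (vertical axis) by cell type (horizontal groups), LMC-type, intermediate and VSMC-type cells among them, in the 4 libraries. Each point is the summed UMIs of 1 library. Osr2 descends from 57.8 to 192 CPM in LMC-type cells to 7.37 to 22.9 CPM in VSMC-type cells, Meox2 and Prrx2 run the other way, and the values of Prrx1 and Tbx15 overlap.

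Outside the stroma, levels depended on the cell type. In leukocytes, the largest other population with 5406 cells, Prrx1 ranged from 0.82 to 5.68 CPM over the 4 libraries. The 35 endothelial cells of tdT1 had Meox2 at 262 CPM, Tead1 at 48.9 and Meox1 at 28.9, but Prrx1 at only 4.44 CPM. The 2 endothelial cells of WT gave Meox1 at 288 CPM on 8 UMIs, and the 6 such TNF-Tg cells gave 253 CPM on 15 UMIs. In the 9 contractile cells of tdT1, where Acta2 measured 6754 CPM, Tead1 reached 235 CPM on 19 UMIs and Prrx1 86.6 CPM on 7 UMIs, while Twist1, Meox2 and Osr2 had no UMI.

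LMC-type and VSMC-type cells were then compared across libraries by edgeR's quasi-likelihood test on the 8 summed profiles, with the library as a block because both sums of a library come from the same pooled mice, and with Benjamini-Hochberg adjustment over all genes and a threshold of 0.01. Since the gate used other genes of the same cells, a p-value describes how steadily a member separated along with the gate's markers over these 4 libraries. Of 10932 genes tested, 1611 (14.7%) passed, 721 (6.6%) of them higher in LMC-type and 890 (8.14%) higher in VSMC-type cells. Of the 10 members, 8 had counts enough to be tested and 6 passed, 3 in each direction, while Meox1 and Tcf21 did not enter the test.

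Osr2 was higher in LMC-type cells by 3.07 on the log2 scale (SE 0.17, adjusted p = 2.1e-08 by edgeR). Differences of single libraries are given here and below per total UMI, without the TMM scaling factors that the edgeR test uses. For Osr2 they lay between 2.73 and 3.67. Osr2 ranked 86 of the 10932 genes in the direction of the LMC-type. Twist1 was higher by 0.63 (SE 0.13, adjusted p = 0.0023) and Tead1 by 0.62 (SE 0.13, adjusted p = 0.0031), and both differences were positive in 4 of 4 libraries. They were several times smaller on the log2 scale than that of Osr2. For Tead1 in tdT2 the value of 0.30, on 18 and 17 UMIs, had a counting interval that spans 0, from -0.74 to 1.35.

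Meox2 was lower in LMC-type than in VSMC-type cells by a log2 difference of -2.44 (SE 0.17, adjusted p = 1.0e-07), and Prrx2 by -2.08 (SE 0.15, adjusted p = 2.1e-07). Twist2 differed by -0.66 (SE 0.13, adjusted p = 0.0017). All 3 were negative in 4 of 4 libraries, although for Twist2 in TNF-Tg the value of -0.17 per total UMI had a counting interval that spans 0, from -0.45 to 0.11. With the TMM factors of the fit, Twist2 in TNF-Tg stood further apart, at 36.1 CPM in LMC-type and 47.4 CPM in VSMC-type cells. Meox2 ranked 183 of the 10932 genes in the direction of the VSMC-type.

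Prrx1 (-0.41, SE 0.14, adjusted p = 0.049) and Tbx15 (-0.32, SE 0.16, adjusted p = 0.158) did not pass. Single libraries gave Prrx1 differences of -0.52, 0.04, -0.44 and -0.24. For Tbx15 the TNF-Tg library went the other way, at 0.43 per total UMI (interval 0.15 to 0.72). With the TMM factors of the fit its TNF-Tg levels were closer, at 47.1 CPM in LMC-type and 40.8 CPM in VSMC-type cells. Without TNF-Tg the edgeR difference of Tbx15 was -0.49 with an adjusted p of 0.033. The differences of Twist1, Twist2 and Tead1 were nearly as large or larger without WT (0.60, -0.62 and 0.64), but the adjusted p was then 0.035, 0.040 and 0.049 and the genes no longer passed. Without tdT2, Twist1 had a difference of 0.60 and an adjusted p of 0.012. Those of Osr2, Meox2 and Prrx2 were kept whichever library was left out. Summed macrophage markers (6 genes) stood at 42.6 to 73.4 CPM in LMC-type and 109 to 204 CPM in VSMC-type cells, and the leukocyte markers used by the gate (8 genes) at 0 to 34.7 and 3.43 to 36.5 CPM, while leukocytes held Prrx1 at no more than 5.68 CPM.

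**Figure D2:**
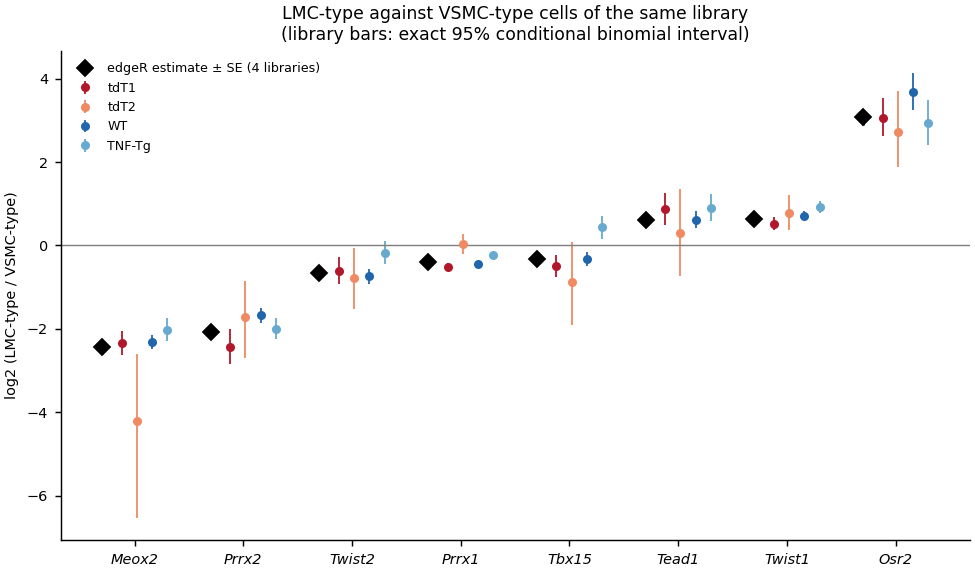
Difference between LMC-type and VSMC-type cells for each tested member (log2, positive where LMC-type is higher). The edgeR estimate, which uses TMM factors, is shown with its SE, and the value of each of the 4 libraries, per total UMI, as a point. Osr2 lies near 3, Twist1 and Tead1 between 0 and 1, and Meox2 and Prrx2 near -2, with 1 Tbx15 point and 1 Prrx1 point on the positive side.

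The same genes were read along the gate's score, the LMC marker score minus the VSMC marker score, in 5 bins from below -1.5 to above 1.5. In WT, Osr2 went from 4.03 through 12.6 and 40.1 to 93.7 CPM in the fourth bin and stayed at 93.7 CPM in the last one. Meox2 went in the same bins from 135 through 81.9, 55.3 and 28.8 to 21.9 CPM. Both genes thus ran in steps through the intermediate cells, Osr2 upward and Meox2 downward.

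Twist1 in WT went from 133 to 202 CPM between the first bins and then stayed at 253, 252 and 264 CPM. Prrx2 held at 77.3, 74.4 and 65.9 CPM in the first 3 bins and then stood at 45.8 and 19.5 CPM, so that its change lay on the LMC side of the scale and that of Twist1 on the VSMC side. Prrx1 went from 633 through 535, 510 and 479 to 429 CPM, with the widest step between the first bins. In TNF-Tg, Osr2 went from 2.61 to 62.2 CPM over the bins and in tdT1 from 17.2 to 196 CPM. In tdT2, whose bins hold 21 to 67 cells, Osr2 went from 6.32 to 162 CPM and Meox2 from 123 to 2.45 CPM.

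**Figure D3:**
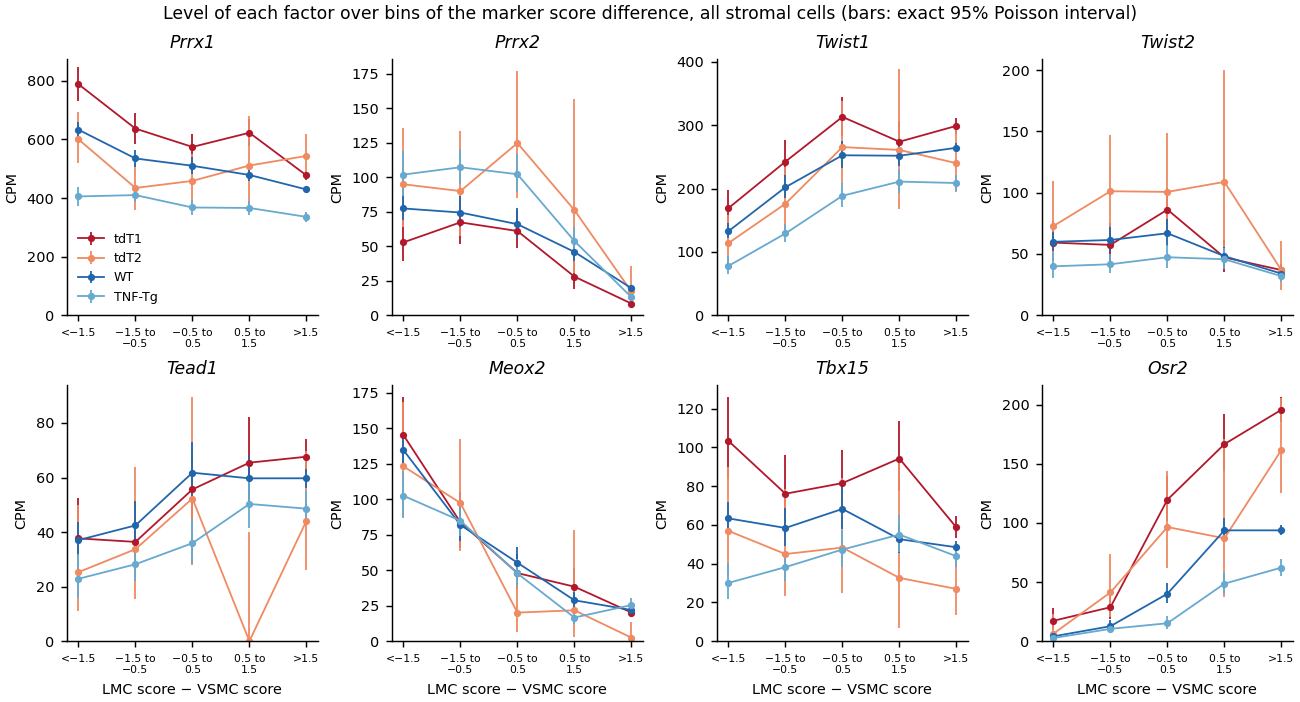
Members' levels (CPM, vertical axis) in 5 bins of the LMC marker score minus the VSMC marker score (horizontal axis, from the VSMC-marker side to the LMC-marker side), 1 line per library, with 95% counting intervals. From the first to the last bin Osr2 climbs and Meox2 declines in each library, though not at each step. The WT line of Twist1 levels off at 253 CPM from the middle bin on.

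Combinations within single cells were counted after each cell was thinned at random to 3000 UMIs, which left out shallower cells (4 to 154 LMC-type and 25 to 95 VSMC-type cells per library). After thinning, 74.4, 80.0, 69.8 and 57.6% of LMC-type cells of tdT1, tdT2, WT and TNF-Tg held a UMI of Prrx1, against 80.3, 69.9, 73.1 and 66.7% of VSMC-type cells. In leukocytes thinned alike the share was 0.209 to 2.14%, far below that of the stromal cells. The part of free RNA in these shares was not tested. Before thinning, WT had median depths of 16098.5 (LMC-type), 10667 (VSMC-type) and 11653.5 UMIs (leukocytes), and the Prrx1 shares were 96.7, 86.9 and 1.74%. The order of the stromal types for Prrx1 in WT was therefore the reverse without thinning.

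The thinned share with Osr2 was 35.1, 32.9, 21.6 and 15.4% of LMC-type cells and 6.82, 2.41, 1.58 and 2.24% of VSMC-type cells. The intervals of the types did not overlap in any library, running in TNF-Tg from 12.4 to 18.8% and from 0.972 to 4.37%. For Meox2 the shares were 6.35, 0, 7.02 and 5.97% of LMC-type cells, and 26.5, 30.1, 28.1 and 25.5% of VSMC-type cells. The 0 among the 70 thinned LMC-type cells of tdT2 belongs to this random draw, since these cells held Meox2 UMIs before thinning and the average over all draws was 1.49%. At this depth most VSMC-type cells showed no UMI of Meox2 and most LMC-type cells none of Osr2.

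Twist1 was found in 56.5, 47.1, 51.3 and 44.5% of LMC-type and 40.9, 28.9, 34.2 and 23.5% of VSMC-type cells, and Prrx2 in 3.97 to 6.73% and 13.6 to 22.4%. Tead1 appeared in 8.57 to 19.0% of LMC-type and 3.61 to 10.9% of VSMC-type cells, and Twist2 in 8.86 to 18.6% and 10.6 to 24.1%. All thinned shares rest on a single random draw, which matters most in small groups. Averaged over all draws, the VSMC-type cells of tdT2 held Tead1 in 6.56% and Osr2 in 4.87%.

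A thinned LMC-type cell held 2.20, 2.00, 1.91 and 1.65 of the 10 members on average in tdT1, tdT2, WT and TNF-Tg, and a VSMC-type cell 2.33, 1.90, 2.01 and 1.68. The means of 1.94 ± 0.23 and 1.98 ± 0.27 (SD, n = 4) differed by less than the spread between libraries. Within libraries the VSMC-type cells held 0.0396 more members on average (SD 0.0977, n = 4) and were the higher ones in 3 of 4. The exact two-sided sign-flip p was 0.5, where 0.125 is the smallest that 4 pairs allow. Averaged over all draws of 3000 UMIs, for 8 members, the difference was 0.0491 (higher in 3 of 4, exact sign-flip p = 0.25). Without cells of low quality it was -0.0178 (higher in 2 of 4). At 5000 UMIs the VSMC-type cells were higher in 4 of 4 libraries, by 0.211 on average (SD 0.0986, exact sign-flip p = 0.125). A leukocyte held 0.00471 to 0.0643. At least 3 members were seen together in 19.5 to 37.1% of LMC-type and 19.6 to 41.7% of VSMC-type cells, and at most 6 in a cell. At 1500 UMIs the VSMC-type cells were higher in 2 of 4 and with no thinning in 1 of 4. With 4 pairs no such comparison can reach a p under 0.05.

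Prrx1 with Twist1 was the pair most often seen in LMC-type cells, in 42.7, 34.3, 36.0 and 25.4% of cells, and in 33.3, 19.3, 24.5 and 17.4% of VSMC-type cells. With Osr2 added to the pair there were 14.9, 14.3, 8.54 and 5.39% of LMC-type cells, and 3.03, 0, 0.593 and 0.28% of VSMC-type cells. Prrx1 with Meox2 marked 20.5, 15.7, 21.3 and 17.9% of VSMC-type cells and 4.96, 0, 5.35 and 3.47% of LMC-type cells. Prrx1 with Prrx2 was seen in 9.85 to 14.5% of VSMC-type and 1.43 to 4.70% of LMC-type cells.

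By exact set, 220 of 1382 thinned WT LMC-type cells (15.9%) showed Prrx1 alone of the 10 members, as many showed Prrx1 with Twist1 alone, 104 Twist1 alone, 69 Prrx1, Twist1 and Osr2, and 102 none. Among 506 WT VSMC-type cells, 85 (16.8%) showed Prrx1 alone, 42 Prrx1 with Twist1, 31 Prrx1 with Meox2 and 38 none. Altogether 100 and 76 distinct sets occurred in the LMC-type and VSMC-type cells of WT. Thinning drops factors at random, and fewer cells gave fewer sets (24 in the 70 LMC-type cells of tdT2). These counts therefore cannot say whether the cells of a type share a combination.

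**Figure D4:**
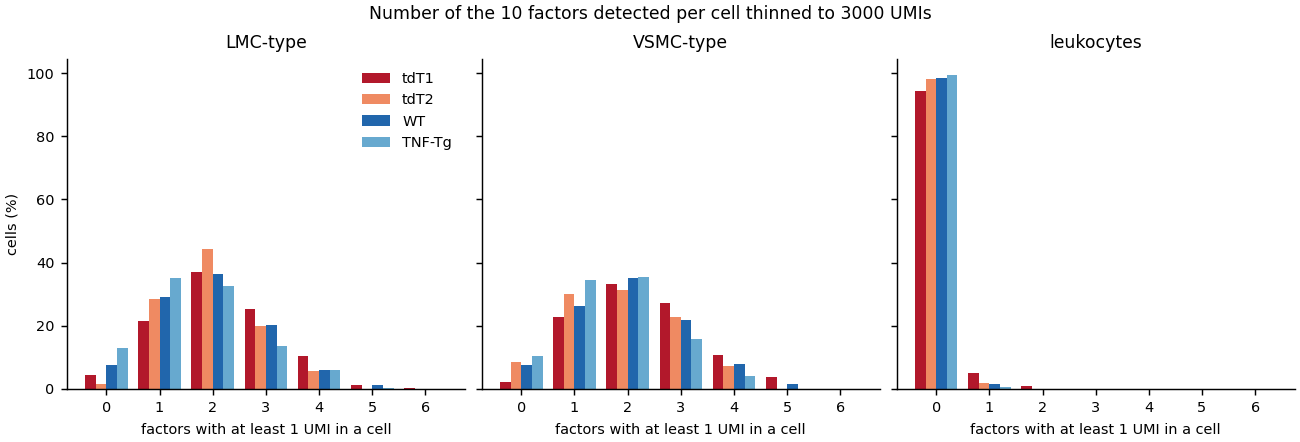
Share of LMC-type, VSMC-type and leukocyte cells (percent, vertical axis) by the number of members with a UMI after thinning to 3000 UMIs (horizontal axis). Each cell group has its own panel, with 1 bar per library. The bars of LMC-type and VSMC-type cells run alike, with means of 1.94 and 1.98 members per cell, and nearly all leukocytes lie at 0.

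Within a type, most pairs occurred about as often as the product of their single shares gives. Averaged over all possible draws of 3000 UMIs and pooled over the libraries, the ratio of the observed to the product value had a median of 1.02 over the 28 pairs of the 8 testable members in LMC-type cells (range 0.793 to 1.24) and of 1.04 in VSMC-type cells (0.826 to 1.48). For Prrx1 with Twist1, 867 LMC-type cells held both where the product gives 856, a ratio of 1.01, and VSMC-type cells had 256 and 253, again a ratio of 1.01. Osr2 with Meox2, the 2 genes that separated the types most, met in 28.9 LMC-type cells where the product gives 35.7. That ratio of 0.81 was 0.596 in 1 random draw and 0.93 without thinning, so nothing is read from it.

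The tdT-sorted libraries and WT differ in genotype, sort, sexes pooled and day, and tdT1 also in the sequencer, the sorting nozzle and the Cell Ranger version and gene list it was counted with. These cannot be told apart, so their values are given side by side with no test. In LMC-type cells Prrx1 (498 and 538 against 438 CPM), Twist2 (38.2 and 49.99 against 36.3) and Osr2 (192 and 148 against 93.7) were higher in both tdT libraries than in WT. In VSMC-type cells Osr2 was higher in both (22.9 and 22.3 against 7.37 CPM) and Tead1 lower (37.0 and 29.1 against 39.1). For the other members among the 8 tested between the types, at least 1 tdT value lay on each side of WT or did so once cells of low quality were left out. The tdT1 library stood apart in quality, with 34.3% of all cells above 10% mitochondrial UMIs. Its 6 genes of the dissociation response summed to 15816 CPM in LMC-type and 21113 CPM in VSMC-type cells, against 2582 to 5702 CPM in the other libraries, and the part of this in its values was not tested. Without cells of low quality, Osr2 in tdT1 LMC-type cells was 196 CPM.

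TNF-Tg was set against WT with 1 library in each group, so there is no replicate check and no test, and the condition cannot be told apart from the library. The gated types also differed in make-up. Of VSMC-type cells, 174 of 422 in TNF-Tg and 387 of 601 in WT had a score difference below -1.5. The median LMC score of LMC-type cells was 2.36 in TNF-Tg and 2.85 in WT. Members change along this score, and the part of make-up in the ratios was not tested. The background is wide: in LMC-type cells 29.1% of genes were at least 1.25-fold lower and 24.8% at least 1.25-fold higher in TNF-Tg, and in VSMC-type cells 44.2% and 21.4%. Of the members with enough UMIs, 3 of 8 were lower by that much and 0 of 8 higher in LMC-type cells. In VSMC-type cells 7 of 9 were lower and 1 of 9 higher. The 7 include Meox1, with 6 UMIs in TNF-Tg and 16 in WT (log2 ratio -0.89, interval -2.53 to 0.54). They also include Meox2, just past the 1.25-fold line, which with TMM factors was at -0.11 (interval -0.29 to 0.07). With TMM factors Prrx1 (-0.316) and Twist1 (-0.300) in LMC-type cells and Twist1 in VSMC-type cells (-0.321) also fell short of that line. The counts therefore depend on the scaling, and the background shares are per total UMI. The median of all genes was itself at a log2 ratio of -0.03 in LMC-type and -0.22 in VSMC-type cells.

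In LMC-type cells Osr2 went from 93.7 CPM in WT to 57.8 CPM in TNF-Tg, a log2 ratio of -0.70 (interval -0.85 to -0.55). Prrx1 had a ratio of -0.34 (-0.40 to -0.28), Twist1 one of -0.32 (-0.41 to -0.24) and Tead1 one of -0.28 (-0.45 to -0.11). Twist2, Meox2 and Tbx15 lay between -0.05 and 0.00.

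In VSMC-type cells Tbx15 went from 61.4 to 35.2 CPM, a log2 ratio of -0.80 (-1.09 to -0.52), and Prrx2 from 76.2 to 105 CPM, a ratio of 0.47 (0.28 to 0.66). Prrx1, Twist1, Twist2 and Tead1 lay between -0.58 and -0.53, and Meox2 at -0.32. Prrx2 was thus the only member of the VSMC-type cells with its whole counting interval above 0, beside 6 below.

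These directions depend on what the members are set against. The summed level of the 8 pan-stromal genes of the gate, among them Col1a1 and Dcn, was itself lower in TNF-Tg. Its log2 ratios were -0.42 in LMC-type and -0.59 in VSMC-type cells. Not each of the 8 was lower, since Pdgfra in LMC-type cells stood at 500 CPM in TNF-Tg against 428 CPM in WT. Scaled to this sum, 8 of the values whose whole counting interval had lain below 0 changed sign. Among these were Prrx1 in LMC-type (0.08) and VSMC-type cells (0.04) and Twist1 in LMC-type (0.09) and VSMC-type cells (0.06). Meox2 (0.38) and Tbx15 (0.37) in LMC-type cells, whose intervals had spanned 0, also turned from negative to positive. Osr2 in LMC-type cells (-0.28), Tbx15 in VSMC-type cells (-0.21) and Prrx2 in VSMC-type cells (1.05) kept their direction. The 4 erythroid markers summed to 604 CPM in the LMC-type cells of TNF-Tg against 9.62 CPM in those of WT, and their part in the values was not tested.

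**Figure D5:**
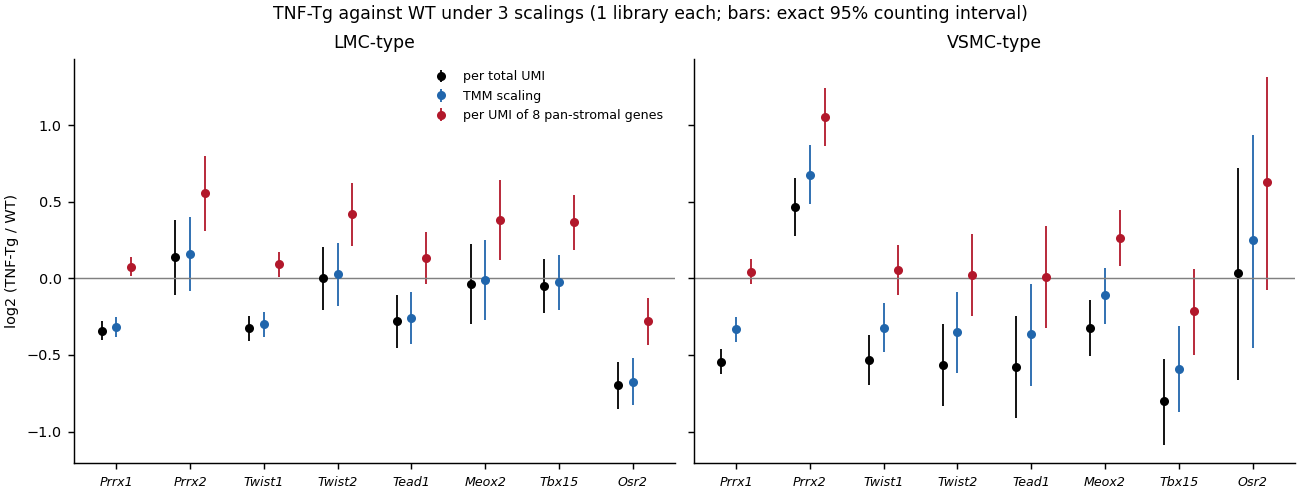
Log2 ratio of TNF-Tg to WT for each member tested between the types (horizontal axis), with 95% counting intervals and 1 library in each group. LMC-type and VSMC-type cells are shown scaled per total UMI, by TMM factors and per UMI of the pan-stromal genes. Per total UMI, Osr2 in LMC-type cells lies at -0.70, Tbx15 in VSMC-type cells at -0.80 and Prrx2 in VSMC-type cells at 0.47.

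Other transcription factors of the same families and tissues were read from lists beside the members. Of 76 genes in 6 lists, 58 were tested between LMC-type and VSMC-type cells, and 13 were higher in LMC-type and 9 higher in VSMC-type cells, which is 37.9% against the 14.7% of all genes. The lists, too, were chosen with earlier results of these data known, so this share is a description only. Their median log2 difference was -0.01, against -0.02 over all genes. Toward VSMC-type cells, the orphan nuclear receptor genes Nr2f2 (-3.22, adjusted p = 1.3e-08 by edgeR's quasi-likelihood test) and Nr2f1 (-2.83, adjusted p = 9.2e-06) and the hedgehog effectors Gli1 (-3.04, adjusted p = 3.9e-07) and Gli2 (-1.59, adjusted p = 5.9e-05) passed. Toward LMC-type cells passed the bZIP gene Creb5 (3.35, adjusted p = 1.1e-07), the hindlimb factor Pitx1 (3.12, adjusted p = 0.00013) and the T-box genes Tbx5 (2.69, adjusted p = 1.0e-05) and Tbx3 (2.22, adjusted p = 2.8e-06).

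By list, the T-box genes had 2 of 3 tested members higher in LMC-type cells and 0 higher in VSMC-type cells, the smooth muscle regulators 2 of 8 and 0, and the limb patterning genes 2 of 8 and 1. The mesenchymal and EMT factors had 1 of 10 and 2, the Tead genes with their cofactors 1 of 6 and 1, and the fibroblast and adventitial factors 5 of 23 and 5. Over all genes 6.6% were higher in LMC-type and 8.14% in VSMC-type cells. Every list also held tested genes that did not pass. The 2 smooth muscle regulators that passed were Mef2a (0.73) and Klf4 (0.61). The genes of that list that did not pass ran from -0.95 (Csrp2) to 0.52 (Mef2d), so the list had no common direction.

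The genes whose levels most resembled each member over 26 profiles of library and cell type, among 10283 genes, were found by Pearson's r of log2 values. The values describe these profiles, which share libraries and mix stroma with leukocytes, and carry no test. Osr2 was nearest to Tbx3 (r = 0.981), Irx5 (0.976) and Samd14 (0.974), and Meox2 to Nr2f2 (0.978), Emp2 (0.974) and Hoxd8 (0.970). Prrx1 was nearest to Dpep1 (0.987), Ogn (0.985) and Scn7a (0.984), and Prrx2 to Ccn5 (0.982), En1 (0.980) and Twist2 (0.979). Twist1 was nearest to Ogn (0.991), Tmem100 (0.987) and Larp6 (0.986), and Twist2 to Fzd2 (0.996), Hoxc10 (0.993) and Hoxc9 (0.992). Tead1 was nearest to Cachd1 (0.994), Vangl1 (0.993) and Mpdz (0.993), and Tbx15 to Hoxc9 (0.995), Gli3 (0.994) and Ms4a4d (0.992). Tbx3 and Nr2f2 also stand among the related factors that passed between the types, in the direction of Osr2 and Meox2 respectively. The 26 profiles include the LMC-type and VSMC-type sums of that test, so the shared direction is not a separate result.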

How the data were processed

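Single cells of 4 pooled libraries were measured by 10x Genomics droplet RNA-seq. The deposited matrices hold unnormalized UMI counts from Cell Ranger, aligned by the authors to the mm10 build. The submitters' notes name Cell Ranger 3.1 and Seurat 4.0.3, and the matrix headers give Cell Ranger 3.1.0 for tdT1 (31053 genes) and 6.0.1 for tdT2, WT and TNF-Tg (32287 genes). Libraries held 2357031 to 68773605 UMIs, and depth limits rare genes. The 10 members, the marker and gene lists and the tests were chosen with earlier results of these data known, and the gate's thresholds were set after seeing values. Gate scores were means of log2(UMIs per 10000 + 1), with stromal cells at a pan-stromal score of at least 2 and a leukocyte score under 0.5, and types divided at score differences of 0.5 and -0.5. No cell was removed as low quality or doublet in the main analysis. Scrublet (scanpy 1.11.5) called 2 doublets among gated stromal cells, and 11 barcodes were shared between libraries, 0 of them by cells that were stromal in both.

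Counts of each type and library were summed and tested with edgeR 4.0.16 (R 4.3.3, TMM factors, filterByExpr, library as block). The SE given with an edgeR difference is its absolute value divided by the square root of the F statistic, since the test reports none. Each library is 1 pool of 3 mice and counts once, and cells are not replicates. The pairing of the sums by library follows from the design, since both come from the same mice. The named genes were the 10 members, the 4 related factors with the largest log2 change past the threshold in each direction and the 3 most similar genes of members with at least 20 CPM. Mef2a, Klf4, Csrp2 and Mef2d were named besides, to describe the smooth muscle list. The edgeR test was run on simulated counts of the 10932 genes. It recovered 50 of 50 genes changed by 2 on the log2 scale in each direction, 24 of 50 changed by -1 and 20 of 50 changed by 1. The simulation had a fixed dispersion, no library effect other than depth, and changed genes only above a count minimum. These rates therefore do not measure recovery in the real libraries. Alternatives were DESeq2 1.42.0, other scaling factors, no filter, no block, leaving out each library, quality and doublet filters, other gates and other thinning depths. The 3 alternatives added after seeing the data were the quality filter of the tdT against WT comparison, the average over all draws for pairs and the difference in members per cell within libraries. Promoter sequences are from RefSeq. Whether counting used the strand is not given in the sources used here, so overlapping genes (all members but Prrx2, Twist1 and Osr2 have one) are uncertain.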

Additional observations from a re-analysis of the deposited data

Results flagged for a closer look

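The log2 ratio of TNF-Tg to WT for Twist2 was 0.0019 in LMC-type cells and -0.56 in VSMC-type cells, and it stands out because the same contrast gave different values in the types. For Osr2 that ratio was -0.6982 in LMC-type and 0.04 in VSMC-type cells, where few UMIs were counted. For Tbx15 the log2 ratio of LMC-type to VSMC-type cells per total UMI was 0.4297 in TNF-Tg and -0.32 in WT, so the types stood in opposite order in the 2 libraries. With TMM factors the TNF-Tg values were closer, at 47.1 CPM in LMC-type and 40.8 CPM in VSMC-type cells. With 1 library in each group none of these differences was tested.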

How the results depend on the processing

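Of 96 values of members between LMC-type and VSMC-type cells under the alternatives, 87 kept direction and side of the threshold and 9 kept direction only. With no replicate block, so without the pairing of a library's sums, 329 genes, 3 members (Prrx2, Meox2 and Osr2) and 7 related factors passed, against 1611, 6 and 22. Leaving out each library gave 884 to 1626 genes, 3 to 6 members and 16 to 23 related factors, all lowest without WT. With no filter on low counts 2332 of 18045 genes and 34 related factors passed, and Meox1 passed at -3.90 (adjusted p = 2.0e-05 by edgeR). Meox1 had only 6 UMIs in LMC-type and 30 in VSMC-type cells, with 1 in each type in tdT2. The adjusted p of Osr2 by edgeR went from 2.1e-08 to 5.2e-70 without the filter, while its SE stayed at 0.172. The p-values with and without the filter are therefore not comparable, and nothing is read from the Meox1 value. Twist2 with 3 markers per type (-0.50, adjusted p = 0.0104) and Tead1 in the outer 50% of each type by score (0.65, adjusted p = 0.0147) did not pass, against -0.66 and 0.62 as reported. The cause of each change was not tested.

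In TNF-Tg against WT, scaling per UMI of the pan-stromal genes turned Prrx1 (0.0765), Twist1 (0.0926) and Tead1 (0.136) in LMC-type cells and Prrx1 (0.0448), Twist1 (0.0561), Twist2 (0.0253), Tead1 (0.0116) and Meox2 (0.266) in VSMC-type cells to positive log2 ratios. Meox2 (0.384) and Tbx15 (0.367) in LMC-type cells, whose intervals had spanned 0, turned positive too. Members with the whole counting interval below 0 then numbered 1 in LMC-type and 0 in VSMC-type cells. Those with it above 0 numbered 6 and 2. In the outer 50% of LMC-type cells 1 lay above 0, Meox2 at 0.55 (interval 0.15 to 0.93).

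Thinning depth sets how many factors are seen. Mean members per LMC-type and VSMC-type cell were 1.16 and 1.17 at 1500 UMIs, 2.63 and 2.84 at 5000, and 3.63 and 3.30 with no thinning. Shares with Prrx1 and Twist1 were 13.3 and 8.33%, 55.0 and 41.0%, and 73.4 and 51.5%. With the quality filter, chosen after seeing the data, 0 members had both tdT libraries below WT in LMC-type cells.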
